A study of Mus musculus with 6 samples.

Results

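The 2′-5′ oligoadenylate synthetase (OAS) family was examined in N9 microglia, an immortalized mouse microglial cell line. The members were the 8 genes Oas1a, Oas1b, Oas1c, Oas1g, Oas2, Oas3, Oasl1 and Oasl2, taken by gene name from a deposited table of read counts for 54532 genes. RNA-seq was done on 3 libraries from untreated control cells and on 3 libraries from cells given lipopolysaccharide (LPS), the bacterial cell wall molecule that TLR4 recognizes, at 1 µg/ml for 6 h. No genotype or other agent is given for either group. The labels number the libraries of a group as replicates without saying that they came from separate cultures, so p-values here measure the spread between these libraries, which may be technical. N9 is a single immortalized line, which limits it as a model of microglia in the brain.

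OAS proteins bind double-stranded RNA, a sign of viral infection, and then join ATP into 2′-5′ linked oligoadenylates (2-5A). These molecules act as a second messenger of the antiviral response. OAS genes are classic interferon-stimulated genes, which factors such as STAT2 and IRF9 switch on at a DNA element called the interferon-stimulated response element (ISRE). In mice the gene that humans have as OAS1 exists as many copies, and the Oasl proteins carry ubiquitin-like domains at their C-terminal end.

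The libraries held between 16363767 and 17956772 counts each. Of 12 microglia and macrophage markers, 11 had a mean above 3 counts, with Csf1r between 7140 and 8027 counts in every library. The homeostatic marker P2ry12 and the general microglia and macrophage marker Aif1 had between 3 and 9 counts per library, and Sall1 had 1 count in all. Levels are given as CPM, the usual read counts scaled to the normalized size of each library. The microglia markers summed to between 1400 and 1440 CPM in the control and 1550 and 1560 CPM in the LPS libraries, with single markers moving either way (Spi1 at a log2 fold change of 0.58, edgeR adjusted p = 5.4e-08, and Trem2 at -0.52, edgeR adjusted p = 1.9e-06). Neuron markers summed to at most 0.634 CPM in any library. The 4 astrocyte markers, nearly all Gja1 (0.18, edgeR adjusted p = 0.0099), summed to between 68 and 69.9 CPM in the control and 74.7 and 81.1 CPM in the LPS libraries. The 4 oligodendrocyte markers, mostly Mbp (-0.34, edgeR adjusted p = 0.0028), summed to between 33.5 and 40 CPM in the control and 28.3 and 29.5 CPM in the LPS libraries. The part of these shifts in the results was not tested. Markers of hepatocytes, which should be absent from this line, summed to 0.234, 15.5 and 24.8 CPM in control replicates 1, 2 and 3 and to between 0.127 and 0.548 CPM in the LPS libraries. With control replicates 2 and 3 both left out, the members' log2 fold changes ran from 0.72 for Oas1c to 5.35 for Oasl2. That comparison sets 1 control library against 3, so its p-values take the spread from the LPS libraries and assume that the lone control library varies like them.

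All 8 OAS members were higher in LPS-stimulated N9 microglia than in control cells. Oasl2 and Oasl1 rose most, by 36.5-fold and 21.9-fold, followed by Oas2 (9.96-fold), Oas1b (9.09-fold) and Oas3 (4.73-fold). These 5 genes were differentially expressed genes (DEG), defined as an adjusted p under 0.05 and a log2 fold change beyond 1.5 in edgeR's quasi-likelihood test. Oas1a, Oas1g and Oas1c rose by 2.78-, 2.17- and 1.56-fold, below that size. Of the 12296 genes tested, 2.4% were up-regulated DEG and 2.65% were DEG in either direction, while 18.6% were higher and 15.6% were lower at an adjusted p under 0.05 with no limit on size. For all 8 members every LPS library lay above every control library, which held for 23.7% of the tested genes. The members' median log2 fold change was 2.71, beside 0.0036 for all tested genes. In a bulk sample, a change in the share of cells that express a gene and a change in RNA per cell cannot be told apart.

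**Figure D1:**
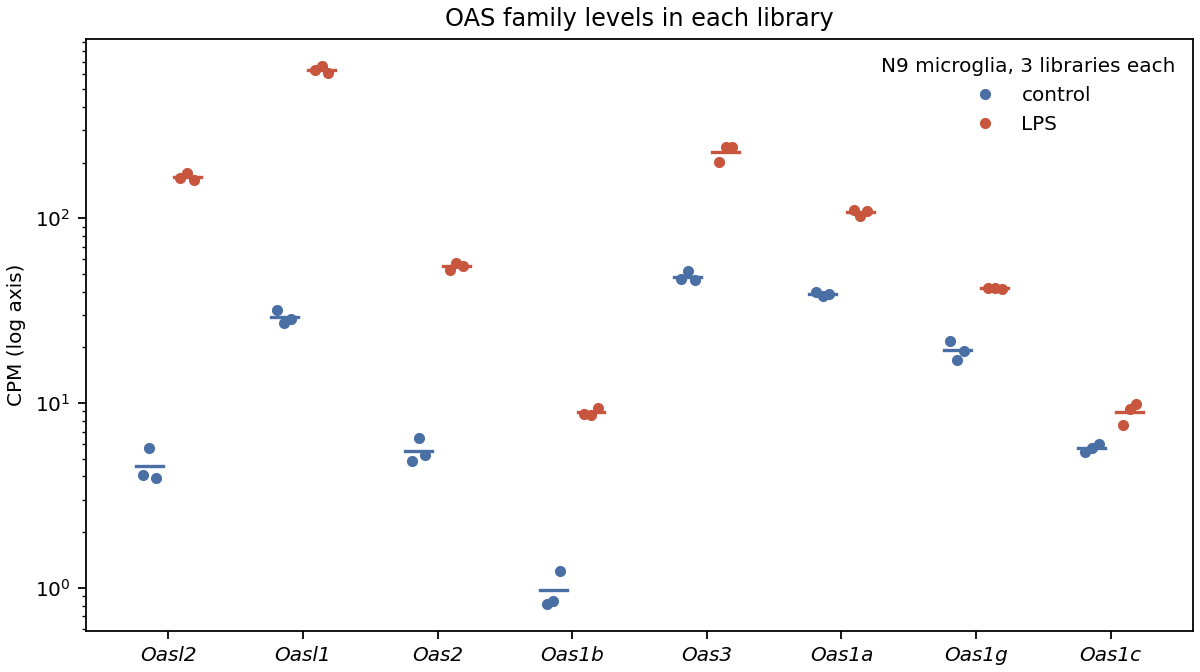
Level of each OAS member in CPM (log axis) in each of the 6 libraries, ordered by fold change. Points are libraries, horizontal bars are group means, blue is control and red is LPS. No member's groups overlap, and the gap narrows from Oasl2 on the left to Oas1c on the right.

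The members lie on chromosome 5 of the mouse build GRCm38 (mm10) in 2 places. Oasl2 (ENSMUSG00000029561, plus strand, chr5:114896936-114912234) and Oasl1 (ENSMUSG00000041827, plus strand, chr5:114923240-114937915) span 41 kb. The other 6 members span 177 kb, and 5.79 Mb lies between the groups. From one end of that group to the other come Oas2 (ENSMUSG00000032690, minus strand, chr5:120730333-120749853), Oas3 (ENSMUSG00000032661, minus strand, chr5:120753098-120777661) and Oas1c (ENSMUSG00000001166, minus strand, chr5:120800194-120812514). They are followed by Oas1b (ENSMUSG00000029605, plus strand, chr5:120812635-120824163), Oas1g (ENSMUSG00000066861, minus strand, chr5:120876142-120887613) and Oas1a (ENSMUSG00000052776, minus strand, chr5:120896256-120907521). All 8 positions are the same in GENCODE release M21. The deposited table lists 7 members as protein coding and Oas1b as a polymorphic pseudogene, a gene that is intact in some strains and broken in others.

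Because the members moved together but by very different amounts, their promoters were read for the ISRE. RefSeq promoter windows on GRCm38.p6, from 250 bases before to 50 bases after the start site, were found for 6 of the 8 members, and Oas1b and Oas2 had no window of their own in that table. The ISRE core was searched as GAAANNGAAA on both strands. It was present in 3.99% of the 27025 genes with a window. Among tested genes it was present in 24.4% of 205 up-regulated DEG and in 3.35% of 8855 genes that were not DEG. It was present in 4 of the 6 members, namely Oas1a, Oas1g, Oas3 and Oas1c, and its letters were not found in the windows of Oasl1 and Oasl2. Of these 4, Oas3 alone was a DEG, whereas Oasl1 and Oasl2 were both DEG. The windows of Oas1a and Oas1g are near copies, so their matches are not separate cases. A match is a description of the sequence and not a shown binding site. Variants of the core and sequence outside the windows were not searched, so a missing match does not show that a gene lacks an ISRE. The windows of Oas1a (minus strand, chr5:120907476-120907775), Oas3 (minus strand, chr5:120777610-120777909) and Oas1c (minus strand, chr5:120812465-120812764) are printed as examples with the element, and those of Oasl1 (plus strand, chr5:114922990-114923289) and Oasl2 (plus strand, chr5:114896684-114896983) as the strongest responders without these letters. Each is written 5′ to 3′ along its gene, with every ISRE core match in capitals.
Oas1a: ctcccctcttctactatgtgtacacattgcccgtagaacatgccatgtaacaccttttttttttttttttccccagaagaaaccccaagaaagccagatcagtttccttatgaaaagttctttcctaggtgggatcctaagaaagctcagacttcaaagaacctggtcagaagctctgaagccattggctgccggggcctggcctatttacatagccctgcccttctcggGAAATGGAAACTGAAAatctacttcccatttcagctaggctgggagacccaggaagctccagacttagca
Oas3: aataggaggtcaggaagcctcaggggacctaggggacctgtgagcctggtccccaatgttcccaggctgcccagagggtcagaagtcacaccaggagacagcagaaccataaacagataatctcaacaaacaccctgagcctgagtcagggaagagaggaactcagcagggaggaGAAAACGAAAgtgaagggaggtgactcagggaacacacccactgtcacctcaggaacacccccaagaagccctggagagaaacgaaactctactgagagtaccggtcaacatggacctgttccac
Oas1c: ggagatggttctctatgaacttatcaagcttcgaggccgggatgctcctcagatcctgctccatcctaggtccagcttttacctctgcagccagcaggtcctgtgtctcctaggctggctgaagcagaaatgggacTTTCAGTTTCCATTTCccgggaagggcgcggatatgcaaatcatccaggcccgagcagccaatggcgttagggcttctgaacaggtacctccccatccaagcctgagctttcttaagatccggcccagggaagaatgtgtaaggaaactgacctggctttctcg
Oasl1: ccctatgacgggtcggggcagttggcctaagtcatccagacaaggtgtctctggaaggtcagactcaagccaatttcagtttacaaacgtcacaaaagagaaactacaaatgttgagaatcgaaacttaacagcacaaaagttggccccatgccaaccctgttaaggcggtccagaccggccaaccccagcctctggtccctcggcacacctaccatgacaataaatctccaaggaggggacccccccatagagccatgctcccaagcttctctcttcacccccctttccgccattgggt
Oasl2: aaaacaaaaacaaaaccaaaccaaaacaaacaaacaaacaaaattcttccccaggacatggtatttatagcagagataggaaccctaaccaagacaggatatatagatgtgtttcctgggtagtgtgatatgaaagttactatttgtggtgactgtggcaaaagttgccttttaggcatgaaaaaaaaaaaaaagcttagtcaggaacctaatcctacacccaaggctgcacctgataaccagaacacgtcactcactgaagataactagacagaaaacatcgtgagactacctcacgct

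In Oas1a, 2 overlapping ISRE cores began 20 and 14 bases before the start site. Oas1g had the same pair beginning 18 and 12 bases before its start site, in a window 87% identical to that of Oas1a. Oas3 had a single core that began 75 bases before the start site. The interferon-gamma activated site, searched as TTCNNNGAA, which reads the same on both strands, was found in Oas1a and in none of the other 5 windows, and in 9.55% of all genes. The NF-kappa B consensus was found in Oasl1, Oas3 and Oas1c and likewise in 9.55% of all genes.

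Oas1c and Oas1b start head to head, with 120 bases between their start sites at 120812514 and 120812635, so that the printed Oas1c window also covers the start of Oas1b. Its 2 overlapping ISRE cores lie at chr5:120812613-120812628. This stretch of 16 bases ends 7 bases before the Oas1b start site and reads GAAA along the strand of Oas1b, whereas it lies between 99 and 114 bases before the start site of Oas1c and on the opposite strand to it. Oas1b rose 9.09-fold and Oas1c rose 1.56-fold from these neighbouring starts. Whether the place or strand of the cores has a part in this difference was not tested.

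Oasl2 and Oasl1 are the members with ubiquitin-like domains. Mouse Oasl2 is an active synthetase, while Oasl1 has lost that activity and is known to hold back translation of the mRNA for IRF7, a driver of interferon production. Oasl2 had 70, 101 and 73 counts in the untreated cells (replicates 1, 2 and 3 in order, as throughout) against 2604, 2891 and 2633 after LPS. Every LPS library was far above every control library. Its log2 fold change was 5.19 (standard error, SE, 0.09, edgeR adjusted p = 4.2e-15), which ranked 37 among all tested genes. Oasl1 had 549, 475 and 531 counts without LPS and 9998, 10951 and 10071 with it. It rose from 29.2 ± 2.62 to 638 ± 27.6 CPM (SD, n = 3), with log2 fold change 4.45 (SE 0.06, edgeR adjusted p = 6.3e-16) at rank 46. Both ranks also count genes such as the paralog Oas1d, at 0 in every control library, whose size is known as a bound alone. Oasl1 was the most counted member with LPS.

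An antisense gene, Gm13822, overlaps the first 38 bases of Oasl1 on the opposite strand. It had 6, 5 and 5 counts without LPS and 60, 68 and 64 with it. It passed the filter on low counts through the LPS libraries alone, so no test is given for it. Whether the counting used strand is not given in the sources used here, and without strand its reads and those of Oasl1 cannot be told apart where they overlap.

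Oas2 and Oas3 are the large synthetases, built from repeated OAS units. Oas2 had 83, 114 and 97 counts without LPS and 823, 940 and 909 with it. It rose from 5.51 ± 0.847 to 54.9 ± 2.60 CPM (SD, n = 3), with log2 fold change 3.32 (SE 0.10, edgeR adjusted p = 1.8e-12), and its lowest LPS library was far above its highest control library. Oas3 had 807, 911 and 860 counts against 3166, 3984 and 3978. LPS replicate 1 was the lowest of its group and still lay far above the control libraries. Oas3 rose from 48.3 ± 2.89 to 229 ± 24.2 CPM, with log2 fold change 2.24 (SE 0.07, edgeR adjusted p = 4.5e-12). In control cells Oas3 had the most CPM of all members, not corrected for its length.

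Oas1b is the mouse gene behind inherited resistance to flaviviruses, and a premature stop codon disables it in many laboratory strains. It had 14, 15 and 23 counts without LPS and 137, 142 and 154 with it. Its groups were far apart although it was the member with the fewest control counts. It rose from 0.968 ± 0.234 to 8.91 ± 0.408 CPM (SD, n = 3), with log2 fold change 3.18 (SE 0.20, edgeR adjusted p = 1.1e-08). The counts do not show which form of Oas1b these cells carry.

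Oas1a and Oas1g are active synthetases of the Oas1 group and are near copies of each other. Their longest coding transcripts in GENCODE were 97.5% identical over the aligned bases. Of all stretches of 100 bases in the Oas1a transcript, 40.9% were present without change in an Oas1g transcript, and 38.2% the other way round. No other member or paralog shared a stretch of 100 bases with the family. At 50 bases the shared part was 57.6% for Oas1a and 54.7% for Oas1g, at most 11.3% for any other Oas1 gene, and nil for Oas2, Oas3, Oasl1 and Oasl2. How the counting treated reads that match both genes is not given in the sources used here, so the division between Oas1a and Oas1g is uncertain.

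Oas1a had 680, 669 and 724 counts without LPS and 1756, 1694 and 1800 with it. The libraries of each group lay close together. Oas1a rose from 38.9 ± 0.889 to 108 ± 4.21 CPM (SD, n = 3), with log2 fold change 1.48 (SE 0.05, edgeR adjusted p = 1.0e-11) just under the size for a DEG, and it reached 1.51, and so counted as a DEG, without LPS replicate 2. Oas1g had 369, 302 and 355 counts against 661, 688 and 678, a log2 fold change of 1.12 (SE 0.08, edgeR adjusted p = 7.3e-08). Summed, which does not depend on how shared reads were divided between them, the pair rose from 58.1 ± 3.1 to 150.0 ± 4.08 CPM, or 2.58-fold. Reads dropped for matching both genes would be missing from this sum.

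Oas1c had 93, 101 and 111 counts without LPS and 120, 152 and 163 with it. The lowest LPS library was close to the highest control library, and this was the narrowest gap in the family. Oas1c rose from 5.71 ± 0.272 to 8.93 ± 1.2 CPM (SD, n = 3), with log2 fold change 0.65 (SE 0.14, edgeR adjusted p = 0.0027).

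The remaining Oas1 paralogs were near or at 0. Oas1d, best known from oocytes, had 0 counts in every control library and 13, 15 and 14 in the LPS libraries. It was at least 5.12-fold higher with LPS, taking 3 counts per control library as the floor. It passed the filter on low counts through the LPS libraries alone, so no test is given for it. Oas1h had 0 counts without LPS and 0, 2 and 1 with it. Oas1e and Oas1f had 0 counts in all 6 libraries, which allows up to 3 counts or between 0.161 and 0.19 CPM in each, counting error alone considered.

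To describe how members differed from each other in response, the log2 ratio of CPM between members next to each other in fold change was compared between groups. The sign of every difference is set by this order and is no result, and the 3 against 3 libraries cannot reach an exact p under 0.05. The differences are therefore given as a description. The ratio of Oasl2 to Oasl1 went from -2.96, -2.23 and -2.85 in the control libraries to -1.94, -1.92 and -1.94 with LPS, a difference of 0.749 (SE 0.23). The ratio of Oasl1 to Oas2 differed by 1.13 (SE 0.20), that of Oas1b to Oas3 by 0.951 (SE 0.23) and that of Oas3 to Oas1a by 0.762 (SE 0.13). Oas1a to Oas1g differed by 0.354 (SE 0.085), with the shared reads in mind, and Oas1g to Oas1c by 0.485 (SE 0.17). The ratio of Oas2 to Oas1b differed by 0.133 (SE 0.25). None of the 7 differences passed the exact permutation test (two-sided, n = 3 against 3), whose smallest possible p is 0.1. The smallest p of this test after adjustment over the 7 pairs was 0.117.

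Summed over all 8 members the family took 2665, 2688 and 2774 counts without LPS and 19265, 21442 and 20386 with it, in libraries of similar total. Compared per length, as CPM per kb of the listed gene length, Oas1a led in control cells at 20.6 ± 0.472, before Oasl1 at 11.2 ± 1.0, Oas1g at 8.23 ± 0.946 and Oas3 at 6.84 ± 0.409. Oas1c (2.37 ± 0.113), Oas2 (1.24 ± 0.19), Oasl2 (0.719 ± 0.156) and Oas1b (0.486 ± 0.117) followed, and of neighbours in this order the libraries of Oasl2 and Oas1b overlapped. With LPS, Oasl1 led at 245 ± 10.6 CPM per kb. It was followed by Oas1a at 57.3 ± 2.23, Oas3 at 32.3 ± 3.42, Oasl2 at 26.2 ± 1.29, Oas1g at 17.8 ± 0.159, Oas2 at 12.3 ± 0.585, Oas1b at 4.47 ± 0.205 and Oas1c at 3.71 ± 0.497, with no overlap between neighbours. Among all tested genes Oasl1 moved from rank 4583 to rank 209 on this scale, and Oasl2 from rank 10863 to rank 2335. The levels and places of Oas1a and Oas1g depend on how reads that match both genes were counted, which is not known.

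The make-up of the family differed between the groups. Shares are parts of a whole, so a larger share of some members lowers that of others. Every member rose in CPM, including those whose share fell. The uncertainty over reads that match both Oas1a and Oas1g also reaches these shares. Oas1a held 39.9% ± 0.552 of the summed CPM per kb in control cells and 14.4% ± 0.94 with LPS, while Oasl1 went from 21.6% ± 1.2 to 61.3% ± 1.13 (SD, n = 3). Oas1g went from 15.9% ± 1.3 to 4.47% ± 0.104. Oasl2 went from 1.4% ± 0.34 to 6.57% ± 0.146. Oas3 went from 13.3% ± 1.13 to 8.1% ± 0.795 and Oas1c from 4.6% ± 0.341 to 0.931% ± 0.13. Oas2, at 2.4% ± 0.442 and 3.09% ± 0.102, was closer between the groups. The libraries of these 7 members did not overlap between the groups, while those of Oas1b, at 0.943% ± 0.238 and 1.12% ± 0.0743, did. The listed length of Oasl2 is 2.04 times and that of Oas3 1.5 times that of the longest coding transcript. With the transcript length, chosen after the listed lengths were seen, Oasl2 with LPS was at 53.5 CPM per kb, above Oas3 at 48.4, and the libraries of Oas1a, Oasl2 and Oas3 then overlapped along the order. In control cells Oas3 was then at 10.2 and Oas1g at 9.74 CPM per kb, with overlapping libraries, and Oasl2 at 1.47 stood above Oas2 at 1.39, also with overlapping libraries. The share of Oasl2 was then 2.46% in control cells and 10.8% with LPS, and that of Oas2, at 2.33% and 2.8%, overlapped between the groups. Oasl1 remained first with LPS, at 59% of the family.

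**Figure D2:**
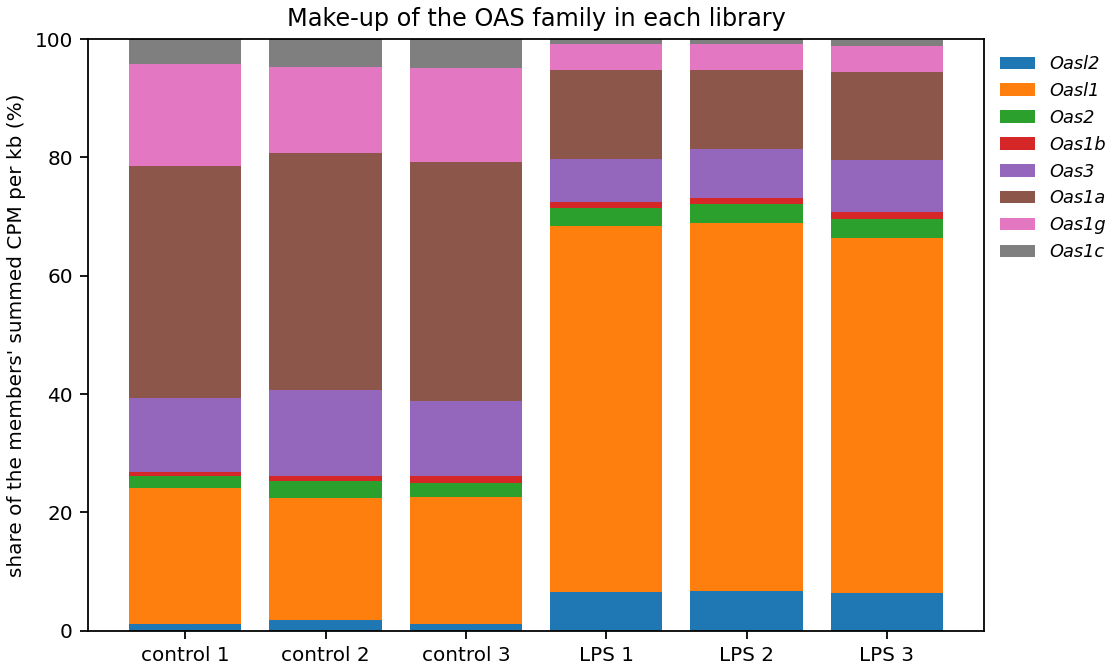
Share of each OAS member in the members' summed CPM per kb of listed gene length, in percent, for each of the 6 libraries. Bars are libraries and colours are genes. Oas1a, at 39.9% on average, is the largest part in the control libraries, and Oasl1, at 61.3%, in the LPS libraries. Reads that match both Oas1a and Oas1g make the shares uncertain.

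Other genes of the 2-5A system were read next, and 0 of the 3 listed passed the test in edgeR or in DESeq2 or had an unadjusted edgeR p under 0.05. Pde12, an enzyme that degrades 2-5A, was at -0.06 (SE 0.06, edgeR adjusted p = 0.46). Abce1, a ribosome recycling factor also tied to the 2-5A system, was at 0.07 (SE 0.04, edgeR adjusted p = 0.22). Akap7, which has a 2′-5′ phosphodiesterase domain, was at -0.39 (SE 0.23, edgeR adjusted p = 0.22). Mb21d1, which encodes cGAS, a DNA sensor with the same enzyme fold as OAS, rose by 0.50 on the log2 scale (SE 0.05, edgeR adjusted p = 4.6e-06), and its relative Mb21d2 was at -0.23 (edgeR adjusted p = 0.22).

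Among 8 other genes of double-stranded RNA sensing, 7 were tested and 6 were up-regulated DEG, with a median log2 fold change of 1.80. Ddx58 (RIG-I), Dhx58 (LGP2) and Ifih1 (MDA5), the cytosolic RNA helicases, rose by 4.41, 3.88 and 3.52 on the log2 scale (highest edgeR adjusted p = 4.0e-13). Tlr3, the endosomal sensor, rose by 1.80. Eif2ak2, the kinase PKR, rose by 1.62 and Adar, which edits double-stranded RNA, by 1.52. Adar fell below the DEG size without control replicate 3 (1.49) and without LPS replicate 2 (1.48). Mavs, the adaptor that RIG-I and MDA5 share, was at 0.03 (edgeR adjusted p = 0.79), and Zbp1 had at most 2 counts in any library.

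In the type I interferon axis, 9 of the 10 genes listed were tested, 3 were up-regulated DEG and 6 were higher at an adjusted p under 0.05, with a median log2 fold change of 0.92. Stat2 and Irf9, which act together at the ISRE, rose by 2.24 and 2.08 on the log2 scale (highest edgeR adjusted p = 3.6e-11). Irf7, the target of Oasl1, rose from 9.19 ± 0.947 to 143 ± 7.78 CPM (SD, n = 3), with log2 fold change 3.97 (SE 0.07, edgeR adjusted p = 6.4e-15). Irf1 rose by 1.30, the kinase Tyk2 by 0.92 and Jak1 by 0.22. The receptor chains Ifnar1 (0.15, edgeR adjusted p = 0.07, and 0.037 without LPS replicate 1) and Ifnar2 (0.09, edgeR adjusted p = 0.38) and the factor Irf3 (-0.04, edgeR adjusted p = 0.74) did not pass the test. Ifnb1, which encodes interferon beta, had 0 counts without LPS and 1, 1 and 0 with it, too few to compare. No list had a gene that was lower at an adjusted p under 0.05.

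**Figure D3:**
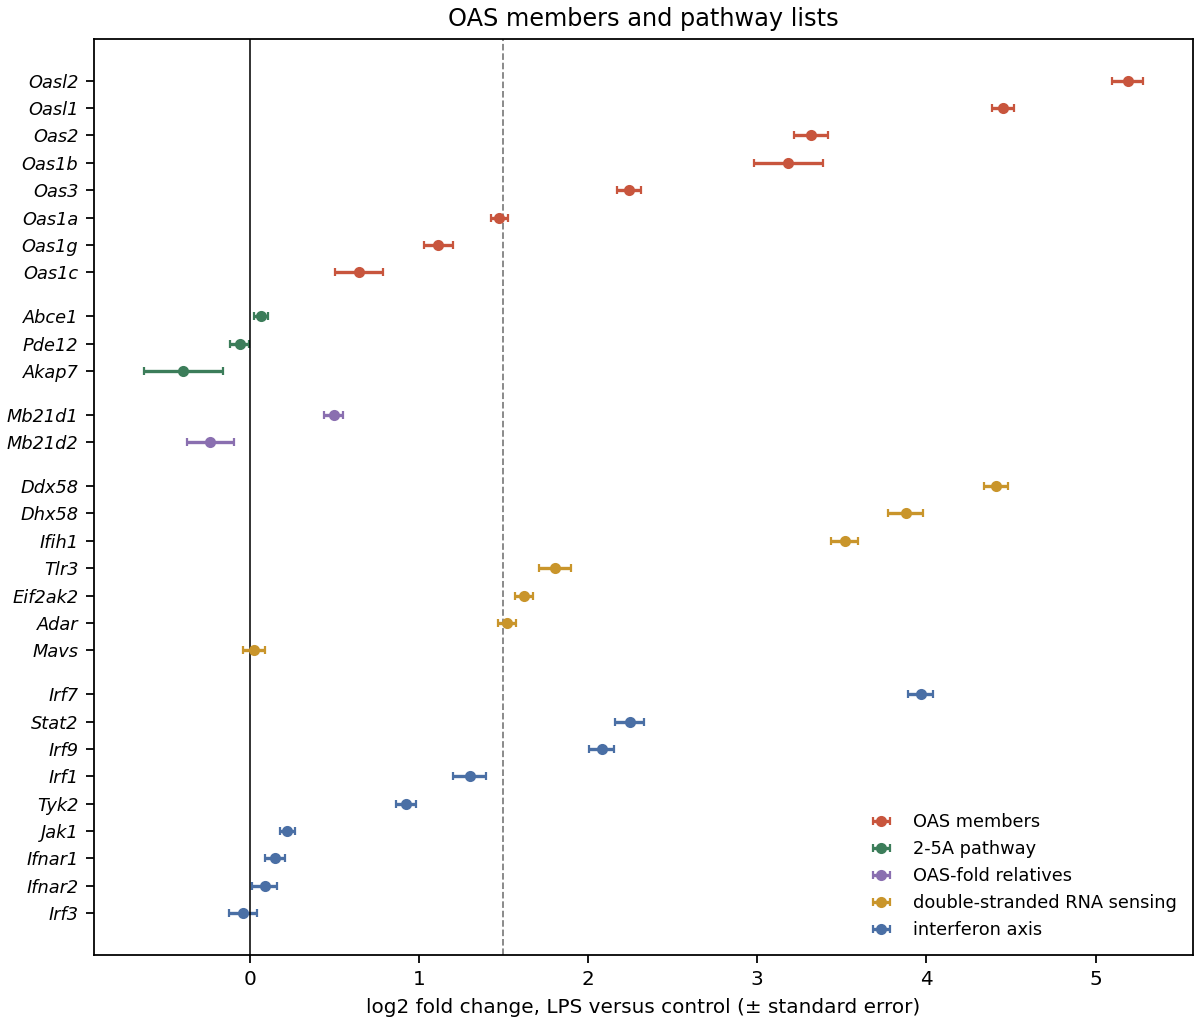
Log2 fold change, LPS versus control, of the 8 OAS members and of the tested genes of the 4 other lists. Points are edgeR estimates, bars are standard errors, the solid line marks 0 and the dashed line the DEG size of 1.5. The members run from 0.65 to 5.19, while the 2-5A genes lie between -0.39 and 0.07.

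Genes beside the family on chromosome 5 were then listed. Within 200 kb of either group the table lists 45 genes outside the OAS family, of which 19 passed the filter on low counts, Gm13822 among them. The other 18 had a median log2 fold change of -0.07, with 4 higher and 3 lower at an adjusted p under 0.05. Over all tested genes 18.6% were higher and 15.6% lower by the same measure. Their largest values in either direction were those of Rph3a, at 0.64 (SE 0.23, edgeR adjusted p = 0.041), and of 2510016D11Rik, at -0.77 (SE 0.09, edgeR adjusted p = 1.6e-05). Between Oasl2 and Oasl1 no other tested gene than Gm13822 was listed, and among the 6 members of the other group none was listed that passed the filter on low counts apart from the members themselves.

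**Figure D4:**
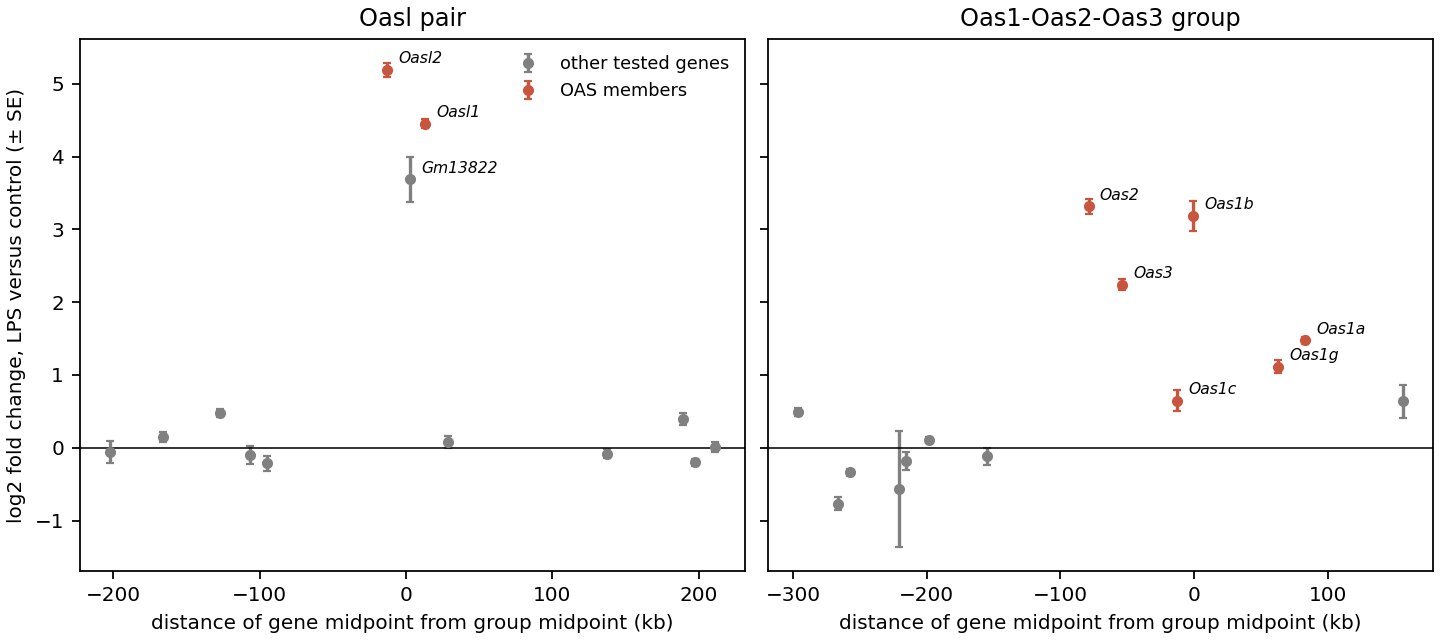
Log2 fold change, LPS versus control, of tested genes within 200 kb of the 2 groups of OAS members, against the distance in kb of each gene's midpoint from the midpoint of its group. Red points are OAS members, grey points are other genes, and bars are standard errors. Apart from Gm13822 beside Oasl1, the grey points lie between -0.77 and 0.64. The paralog Oas1d is not drawn, since its size is known as a bound alone.

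The genes elsewhere in the genome whose pattern lay closest to each member were found among 10450 other tested genes that averaged 50 counts or more per library, by the Euclidean distance between the 6 log2 CPM values centred on each gene's mean. With 2 groups of 3 libraries this measure mostly reads the size of the change. Closest to Oasl2 were the guanylate-binding protein gene Gbp3 (distance 0.239), Gbp2 (0.494) and Ifi209 (0.544). Closest to Oasl1 were Ifit2 (0.292), Slfn8 (0.36) and Ddx58 (0.386). Ifi209 and Slfn8 averaged 0.205 and 0.528 CPM in the control libraries, so their distances rest on few control counts. Ifih1 (0.316), Ifi203 (0.316) and Igtp (0.36) were closest to Oas2, and Gm4070 (0.27), Trim30a (0.353) and Trim34b (0.379) to Oas1b. Closest to Oas3 were Gm8995 (0.182), Ifi207 (0.198) and Plpp3 (0.226). For the members with smaller changes the nearest genes were Sod2 (0.0742), Plaur (0.0905) and Tdrd7 (0.15) for Oas1a, Map6 (0.112), Ogfr (0.128) and Pnp (0.151) for Oas1g, and Arid5b (0.0656), Zswim4 (0.168) and Optn (0.184) for Oas1c.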

How the data were processed

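RNA-seq libraries of 3 control and 3 LPS-stimulated samples of N9 microglia, grouped by their titles, were compared. The authors deposited read counts per gene, whole numbers without normalization, and gene lengths in bases. The submitters' processing notes name featureCounts version 1.5.0-p3 and the build mm10. The aligner, the annotation release and the use of strand are not given in the sources used here. The authors' own comparison (normalized values, FPKM, log2 fold changes and p-values from DESeq2) was not used.

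edgeR version 4.0.16 under R 4.3.3 was run on the counts with TMM, filterByExpr by group, a prior count of 0.125 and the quasi-likelihood test, with Benjamini-Hochberg adjustment over the 12296 genes tested. CPM used TMM-normalized library sizes, and SE is the log2 fold change over the square root of F. Member ratios used 0.5 counts added, and exact permutation tests used scipy version 1.17.1. Promoter windows came from RefSeq (GRCm38.p6) and transcripts from GENCODE release M21, aligned with Biopython version 1.88. Every pair of libraries in a group differed by more than sampling noise (chi-square per gene from 3.61 to 7.82). The tests were checked on simulated data. DESeq2 version 1.42.0, other filters, scalings and a replicate block, and each library left out in turn, were alternatives. Floors cover counting error alone, since reads carried no molecular identifiers.

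Named genes were all members, the 4 other Oas1 paralogs, the listed pathway genes, neighbours within 200 kb and the 3 nearest genes by pattern. The members and lists were chosen with earlier results of these data known. Some listed genes are not reported here.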

Additional observations from a re-analysis of the deposited data

How the results depend on the processing

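The count of 5 OAS members called DEG was the same in DESeq2, with RLE size factors, under both other filters, with a prior count of 2, in glmTreat, and in the fit without filter but with robust dispersion, which was chosen after seeing the data. With single libraries left out it ran from 5 to 6, the sixth being Oas1a without LPS replicate 2. All 8 members had an adjusted p under 0.05 in each of these fits except glmTreat, where the null hypothesis is a change of up to 1.5 on the log2 scale and 5 passed. With control replicates 2 and 3 both left out the counts were 5 and 8, but the control group then had 1 library, which was assumed to vary like the LPS libraries. glmTreat also took the DEG over all genes from 326 to 183. DEG over all genes numbered 469 without a filter on low counts and 360 in DESeq2, and ran from 353 to 377 with each library left out. Over the 29 tested genes of the lists other than Oas1d, 429 of 435 fold changes under alternatives kept their side of the DEG thresholds. No called value reversed, 5 lost the call, 4 for Adar and 1 for Eif2ak2, and 1, for Oas1a, gained it. Mavs and Irf3, near 0 and not called, changed sign in some.

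The labels do not say that replicate numbers pair the libraries. Deviations from the group means correlated at 0.14, 0.059 and -0.0042 across genes for numbers 1, 2 and 3. Between control and LPS libraries of different numbers they correlated at between -0.14 and 0.091. With 3 libraries per group these values cannot decide whether the libraries are paired. With the replicate block, 329 DEG and 5 OAS members were called, and 8 members had an adjusted p under 0.05. Ifnar1, at an adjusted p of 0.07 in edgeR, was at 0.019 with the replicate block, 0.044 with no filter and robust dispersion and 0.016 with control replicates 2 and 3 left out, and ran from 0.037 to 0.32 with each library left out.

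The 3 libraries per group limit single-gene permutation tests to p = 0.1. Oas1d, at 0 in the control libraries, has a bound rather than a size. How the deposited counting treated reads shared by Oas1a and Oas1g, and strand at the start of Oasl1, could not be varied here.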
